A study of Mus musculus with 6 samples.

Results

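Glomeruli, the filtering units of the kidney, hold few leukocytes next to their podocytes, mesangial cells and endothelium, and 46 genes of macrophages and dendritic cells were followed here in glomerular RNA of mice with and without podocyte Klf4. The genes were chosen by symbol, as markers of the lineage and of its receptors, enzymes and transcription factors, and all 46 were found among the 24035 named genes of the deposited table. Symbols matched directly for 45 of them, and Adgre1 stood under its older name, Emr1. RNA was measured by sequencing in 6 libraries of FVB/N mice. The 3 control libraries carried the genotype Klf4 fl/fl, and the 3 knockout libraries carried Podocin-Cre Klf4 fl/fl. Both groups thus shared the floxed Klf4 alleles, and the knockout added a Cre recombinase driven by the promoter of podocin, a gene of podocytes. No group carried the Cre alone, so its effect and that of Klf4 loss cannot be told apart. Glomeruli had been collected with a magnet after perfusion of the mice with iron oxide, so each library holds the RNA of every cell left in that preparation. The labels do not tie the libraries to separate animals, so the p-values rest on the spread between libraries, which may be partly technical.

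Macrophages and dendritic cells are phagocytes of the myeloid lineage that sample their surroundings through Fc, complement, lectin and lipid receptors, kill and digest what they take up, and present peptides to T cells. In the kidney they form a resident network, and monocytes drawn from the blood by chemokines add to it when the tissue is injured. Their identity rests on the transcription factor PU.1, encoded by Spi1, with its partners of the interferon regulatory factor family, and on signalling through the receptor Csf1r.

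Most of the genes stood higher in the knockout. Levels are given as RPKM, reads adjusted for gene length and library depth, always in the order of replicates 1, 2 and 3, and as mean ± SD of n = 3 libraries. Changes were tested with limma, two-sided, on log2(RPKM + 0.5) with Benjamini-Hochberg adjustment over the 13912 genes that had a mean of at least 0.5 RPKM, and a gene passed at an adjusted p under 0.05. This scale understates the change of genes with low levels, and a fold is the ratio of mean RPKM. Of the 46 genes, 42 rose, against 9.98% of all genes tested, and 1, Mrc1, fell, against 3.48% of all genes tested. The 46 genes were chosen with earlier results of these data known, so this contrast is a description and not a test. Cd53, Csf1r and Aif1, the remaining 3, stayed under the threshold. For 19 of the genes the control mean was under 0.5 RPKM, so they entered the test only through their knockout level and had to differ: Cd48, Adgre1, Itgax, Fcgr1, Fcgr4, Cd209a, Clec12a, Clec4a1, Clec4n, Cd300lb, Cd300ld, Cd86, Cx3cr1, Ccr2, C3ar1, C5ar1, Trem2, Gpnmb and Irf4. Counts by role are therefore given over the other 27 genes, and the levels of these 19 as a description. Among the other 27 genes, 23 rose, 1 fell and 3 stayed under the threshold. The shares of 9.98% and 3.48% include genes that entered the test only through their knockout level, so they are not a like background for these 27. A share over all genes with such control means is not at hand, so this count and the counts by role are a description. The median log2 change was 1.61 over the 46 genes and 0.10 over all genes tested. Folds of the genes that rose ran from 2.31 for Irf5 to 30.0 for Trem2, leaving out Gpnmb, which had 2 reads in all controls. For 42 of the 46 genes every knockout library stood above every control library, for Mrc1 every one stood below, and for 3 genes the groups overlapped. Over all genes tested, 35.1% had groups that did not overlap in 1 or the other direction.

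**Figure D1:**
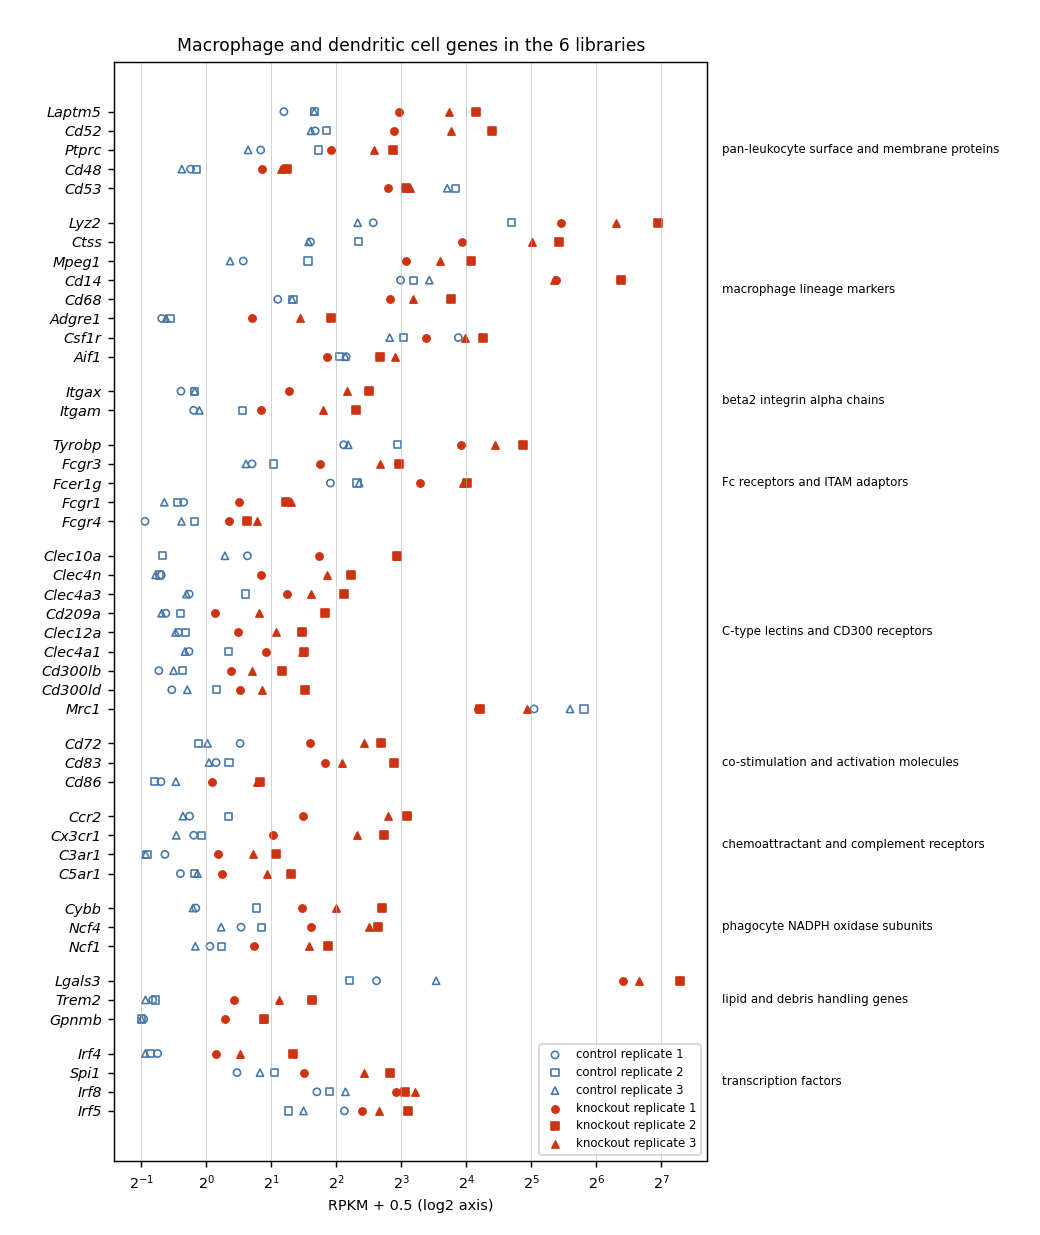
Level of each of the 46 genes in each library, as RPKM + 0.5 on a log2 axis, grouped by role. Open blue symbols are the 3 control libraries and filled red symbols the 3 knockout libraries, with a shape for each replicate. Red symbols lie to the right of the blue ones for 42 genes, to the left for Mrc1, and among them for Cd53, Csf1r and Aif1.

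The number of genes that rose depended on single libraries. It was 22 without knockout replicate 2, where 3.78% of all genes rose, 26 without control replicate 1 (6.03% of all genes) and 27 without control replicate 3 (5.89%). Without the remaining libraries it was 33 to 40. The call was kept under every alternative in which they were tested by 20 genes: Adgre1, Ccr2, Cd14, Cd48, Cd52, Cd68, Cd72, Cd83, Clec4n, Ctss, Cx3cr1, Fcer1g, Gpnmb, Irf8, Itgax, Laptm5, Lgals3, Mpeg1, Trem2 and Tyrobp. Of these, Adgre1, Ccr2, Cd48, Clec4n, Cx3cr1, Gpnmb, Itgax and Trem2 had control means under 0.5 RPKM, so that their kept calls are a description only. The other 22 lost it at least once and kept their direction. Of all genes that passed, 74.2% were higher in the knockout, and this share was 60.5% with median-of-ratios scaling and 51.5% with quantile normalization, which moved the median change of all genes from 0.10 to -0.05. With these scalings 38 and 30 of the 46 genes rose, against 7.74% and 6.10% of all genes tested.

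Levels and depth set what can be read from each gene. The libraries held 38936993 to 58272424 counted reads, so that 1 read in a gene of 1 kb was worth 0.0172 to 0.0257 RPKM. Klf4 itself stood at 21.5, 44.3 and 49.8 RPKM in controls and at 29.4, 40.3 and 41.4 RPKM in knockouts, with a log2 change of 0.02 ± 0.31 SE (limma adjusted p 0.979). An exact two-sided permutation test gave p = 1, where the smallest p that 3 against 3 libraries allow is 0.1. Gene-level reads do not show the deleted part of the gene, and Klf4 is also made by endothelial cells, so this gene does not check the labels. Defining markers of podocytes were present in every library and stood lower in the knockout, as given with the other cell types.

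Promoter sequences of the genes show which of them carry the letters that PU.1 and its partners are known to bind. RefSeq promoters of 300 bases on GRCm38.p6, from 250 bases before the start site to 50 from the start on, were at hand for 35 of the 46 genes, as 39 promoters. Adgre1, Cd14, Cd52, Cd83, Cd86, Clec10a, Clec4n, Csf1r, Ncf4, Spi1 and Tyrobp had no promoter at hand and were not searched. Searched on both strands, the PU.1 letters GAGGAAGT stood in 5 of the 39 promoters (12.8%), those of Fcgr4, Ctss, Cd53, Cd72 and Cd300ld, and in 3.2% of all 32851 promoters. The composite of PU.1 and its partners, GGAA followed after any 2 bases by GAAA, stood in 4 (10.3%), of Clec4a1, Cd209a, Cd68 and Cybb, and in 2.72% of all. The interferon response letters, GAAA followed after any 2 bases by GAAA, stood in 5 (12.8%), of Fcgr4, Ctss, Ncf1, Aif1 and Cybb, and in 3.44% of all. The C/EBP letters TTGCGCAA stood in 1 (2.56%), of Clec12a, and in 0.183% of all. Motifs can share bases, but the matches in the sequences below do not. A match is a run of letters, and binding was not measured.

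The promoters of 4 of these genes are shown, each 5′ to 3′ on the strand of its gene with the matches in capitals. Ctss (chr3:95526536-95526835, plus strand) and Fcgr4 (chr1:171018676-171018975, plus strand) hold an interferon response match followed by a PU.1 match read on the opposite strand. Cybb (chrX:9469275-9469574, minus strand) holds 3 interferon response matches and, last, 1 composite match. Cd53 (chr3:106790100-106790399, minus strand) is shown because it holds a PU.1 match and yet did not rise.
Ctss: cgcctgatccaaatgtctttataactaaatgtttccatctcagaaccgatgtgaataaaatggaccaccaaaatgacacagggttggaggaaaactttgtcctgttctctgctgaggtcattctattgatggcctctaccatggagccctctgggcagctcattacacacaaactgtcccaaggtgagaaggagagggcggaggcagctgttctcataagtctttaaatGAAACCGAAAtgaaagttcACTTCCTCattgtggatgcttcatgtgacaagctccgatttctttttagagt
Fcgr4: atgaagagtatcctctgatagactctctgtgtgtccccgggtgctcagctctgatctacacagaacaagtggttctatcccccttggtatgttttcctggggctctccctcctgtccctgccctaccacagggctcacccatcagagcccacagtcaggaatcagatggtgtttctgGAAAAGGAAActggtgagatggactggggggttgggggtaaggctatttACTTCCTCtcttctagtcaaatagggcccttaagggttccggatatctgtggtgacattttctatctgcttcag
Cybb: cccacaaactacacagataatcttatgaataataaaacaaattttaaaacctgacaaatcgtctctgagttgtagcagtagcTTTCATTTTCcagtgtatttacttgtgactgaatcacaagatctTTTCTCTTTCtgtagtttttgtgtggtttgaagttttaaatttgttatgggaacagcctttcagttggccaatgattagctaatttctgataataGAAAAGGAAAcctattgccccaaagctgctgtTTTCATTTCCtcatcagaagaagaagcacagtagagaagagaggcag
Cd53: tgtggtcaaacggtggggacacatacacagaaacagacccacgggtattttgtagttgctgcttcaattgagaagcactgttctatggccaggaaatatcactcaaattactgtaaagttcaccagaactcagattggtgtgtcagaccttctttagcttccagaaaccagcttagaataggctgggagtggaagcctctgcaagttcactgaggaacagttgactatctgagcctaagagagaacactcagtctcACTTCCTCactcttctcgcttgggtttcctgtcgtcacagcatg

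Of the genes found on nearly all leukocytes, 3 of the 4 with a control mean of at least 0.5 RPKM rose. Ptprc, which encodes the leukocyte phosphatase CD45, had control levels of 1.29, 2.79 and 1.06 RPKM and knockout levels of 3.28, 6.83 and 5.49 RPKM. Control replicate 2 was the highest control and lay just under knockout replicate 1, so the groups did not overlap. The rise of Ptprc (3.03-fold, log2 change 1.39 ± 0.35 SE, limma adjusted p 0.0404) was lost without control replicate 1 or 3, without knockout replicate 2 or 3, without the filter on low values, and with either other scaling. Cd48, a ligand of the lymphocyte receptor CD244, read 0.345, 0.4 and 0.27 RPKM in controls and 1.32, 1.87 and 1.73 RPKM in knockouts. Its groups lay far apart and its libraries close together within each group (4.84-fold, log2 change 1.34 ± 0.19 SE, limma adjusted p 0.00657). Laptm5, a lysosomal membrane protein of blood cells, read 1.79, 2.67 and 2.66 RPKM in controls and 7.33, 17.3 and 12.8 RPKM in knockouts. Every knockout library was above every control (5.27-fold, log2 change 2.12 ± 0.30 SE, limma adjusted p 0.00709). Cd52, a small surface glycoprotein of leukocytes, rose from 2.78 ± 0.286 to 13.5 ± 6.78 RPKM (limma adjusted p 0.0129), and its exons overlap those of Crybg2 on the other strand. Cd53, a tetraspanin of leukocytes, departed from the other genes of this kind, with 7.84, 13.7 and 12.5 RPKM in controls and 6.41, 7.94 and 8.3 RPKM in knockouts. The knockout libraries lay at the level of the lowest control or a little above or below it, and the log2 change was -0.53 ± 0.22 SE (limma adjusted p 0.155, 95% interval -1.05 to -0.01). Without control replicate 1 this difference passed the threshold, as a fall. In bulk RNA, more or fewer cells of a type cannot be told apart from more or less RNA of a gene in each cell.

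Of the macrophage markers, 5 of the 7 with a control mean of at least 0.5 RPKM rose. Folds of the markers that rose, Adgre1 included, ran from 5.01 for Cd68 to 14.7 for Adgre1. Cd14, the co-receptor for bacterial lipopolysaccharide, read 7.43, 8.61 and 10.3 RPKM in controls and 40.9, 83.1 and 40.2 RPKM in knockouts. Knockout replicate 2 stood about 2-fold above the other knockout libraries, all of which lay well above the controls (6.24-fold, log2 change 2.50 ± 0.29 SE, limma adjusted p 0.00353). Cd68, a glycoprotein of the phagocyte lysosome, read 1.64, 2.02 and 2 RPKM in controls and 6.61, 13.1 and 8.59 RPKM in knockouts. The control values were tightly grouped and the groups did not overlap (5.01-fold, log2 change 2.01 ± 0.24 SE, limma adjusted p 0.00428). Adgre1, which encodes the macrophage antigen F4/80, read 0.121, 0.182 and 0.15 RPKM in controls and 1.13, 3.3 and 2.23 RPKM in knockouts. It was well under 1 RPKM in each control and above it in each knockout library (14.7-fold, log2 change 1.98 ± 0.31 SE, limma adjusted p 0.00901). Ctss encodes cathepsin S, a protease that frees antigen-presenting molecules for peptide loading, and read 2.53, 4.58 and 2.47 RPKM in controls and 14.8, 42.3 and 31.6 RPKM in knockouts. The groups lay far apart (9.26-fold, log2 change 2.95 ± 0.39 SE, limma adjusted p 0.0055). Mpeg1, a pore-forming protein that acts on engulfed bacteria, read 0.982, 2.46 and 0.788 RPKM in controls and 7.93, 16.3 and 11.6 RPKM in knockouts. Control replicate 2 was the highest control and all knockouts were above it (8.48-fold, log2 change 2.75 ± 0.37 SE, limma adjusted p 0.0057).

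Lyz2, the lysozyme of phagocytes, showed the widest spread among controls of these markers, with 5.42, 25.3 and 4.52 RPKM, against 43.3, 123 and 78.7 RPKM in knockouts. Control replicate 2 stood far above the other controls and still below every knockout library. The rise of Lyz2 (6.96-fold, log2 change 3.04 ± 0.64 SE, limma adjusted p 0.024) was lost without control replicate 1 or 3, without knockout replicate 2 and without the filter on low values. Its close copy Lyz1 makes the split of reads between the pair uncertain. Csf1r, the receptor for CSF1 and IL-34 on which most macrophages depend, read 14.2, 7.69 and 6.56 RPKM in controls and 9.94, 18.5 and 15.3 RPKM in knockouts. Control replicate 1 lay above knockout replicate 1, the groups overlapped, and the log2 change of 0.63 ± 0.32 SE did not pass (limma adjusted p 0.231, 95% interval -0.12 to 1.37). Exons of Csf1r overlap those of Hmgxb3 on the other strand, whose reads cannot be told apart from its own without strand. Aif1, which encodes the actin-binding protein IBA1, read 3.94, 3.63 and 3.9 RPKM in controls and 3.11, 5.89 and 6.98 RPKM in knockouts. Knockout replicate 1 was below all controls and the other knockout libraries above them, and the log2 change of 0.36 ± 0.27 SE did not pass (limma adjusted p 0.403, 95% interval -0.26 to 0.99).

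Both alpha chains of the beta2 integrins of myeloid cells stood higher in every knockout library, Itgax from a control mean under 0.5 RPKM. Itgax encodes CD11c, abundant on dendritic cells, and read 0.263, 0.378 and 0.383 RPKM in controls and 1.91, 5.19 and 3.99 RPKM in knockouts. The knockout libraries lay far above the controls (10.8-fold, log2 change 2.23 ± 0.31 SE, limma adjusted p 0.00662). Itgam encodes CD11b, found on monocytes, macrophages and neutrophils, and read 0.373, 0.971 and 0.428 RPKM in controls and 1.3, 4.44 and 2.95 RPKM in knockouts. Control replicate 2 came close to knockout replicate 1 without reaching it (4.91-fold, log2 change 1.56 ± 0.39 SE, limma adjusted p 0.0402), and the rise was lost without control replicate 1 or 3, without knockout replicate 2 or 3, without the filter on low values, and with quantile normalization. Exons of Itgam overlap those of the gene model Gm49368, and both integrin genes lie side by side on chromosome 7, Itgam at 128062640 to 128118491 and Itgax at 128129547 to 128150657 (GRCm38, plus strand). Their shared partner Itgb2, the beta2 chain, rose as well (3.2-fold, log2 change 1.44 ± 0.28 SE, limma adjusted p 0.0175) but did not pass when control replicate 1, control replicate 3 or knockout replicate 2 was left out. Itgal, the alpha chain typical of lymphocytes, read 0.598, 1.88 and 0.806 RPKM in controls and 1.66, 2.13 and 1.94 RPKM in knockouts, with overlapping groups (limma adjusted p 0.172). Itga4, the alpha chain of the integrin VLA-4, read 15.9, 23.2 and 20.5 RPKM in controls and 16.9, 10.8 and 15.2 RPKM in knockouts, also with overlap (limma adjusted p 0.17). Of the 4 other integrin chains listed, Itgb2 passed and 3 did not.

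Of the Fc receptor and adaptor genes, all 3 with a control mean of at least 0.5 RPKM rose, Fcer1g, Tyrobp and Fcgr3. With Fcgr1 and Fcgr4, which were under that level in controls, folds ran from 3.22 for Fcer1g to 7.15 for Fcgr1. Fcer1g, the signalling chain shared by the activating Fc receptors, read 3.25, 4.48 and 4.61 RPKM in controls and 9.27, 15.7 and 14.9 RPKM in knockouts. Even knockout replicate 1, the lowest, was above all controls (3.22-fold, log2 change 1.56 ± 0.23 SE, limma adjusted p 0.0078). Tyrobp encodes the adaptor DAP12, which carries the signal of Trem2 and related receptors, and read 3.83, 7.2 and 4.04 RPKM in controls and 14.7, 28.8 and 21.3 RPKM in knockouts. The groups were separate and control replicate 2 the highest control (4.3-fold, log2 change 2.00 ± 0.30 SE, limma adjusted p 0.0081). The receptors for immunoglobulin G behaved alike in direction: Fcgr1, of high affinity, rose from 0.22 ± 0.0743 to 1.57 ± 0.566 RPKM (limma adjusted p 0.0121), and Fcgr3, of low affinity, from 1.23 ± 0.277 to 5.35 ± 2.28 RPKM (limma adjusted p 0.0166). Fcgr4, a further activating receptor whose promoter is shown above, read 0.0197, 0.381 and 0.267 RPKM in controls and 0.778, 1.04 and 1.22 RPKM in knockouts. Control replicate 1 was almost empty and the other controls stayed below every knockout library (4.56-fold, log2 change 1.09 ± 0.25 SE, limma adjusted p 0.0327). The call of Fcgr4 was lost under 9 alternatives, among them leaving out control replicate 1 or 3 or any of the knockout libraries, that of Fcgr3 when control replicate 1, control replicate 3 or knockout replicate 2 was left out, and that of Fcgr1 without knockout replicate 2. Fcgr4, Fcgr3 and Fcer1g lie within chromosome 1 from 171018920 to 171234365, and the sequence likeness of Fc receptor genes leaves the split of reads among them uncertain.

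Proteins that carry or check the signals of these adaptors moved in the same direction where they passed. Of 14 such genes tested, 9 rose and 5 did not pass. Lcp2, Vav1 and Pirb, among those that rose, had control means under 0.5 RPKM. They entered the test only through their knockout level. Fgr, a kinase of the Src family in myeloid cells, had the smallest p (5.23-fold, log2 change 1.69 ± 0.24 SE, limma adjusted p 0.00652). Lilrb4a, an inhibitory receptor, also rose (5.39-fold, log2 change 1.89 ± 0.33 SE, limma adjusted p 0.013), as did Ptpn6, the phosphatase that inhibitory receptors recruit (2.21-fold, log2 change 1.07 ± 0.19 SE, limma adjusted p 0.0133), though Ptpn6 did not pass without knockout replicate 2. The inhibitory Fc receptor gene Fcgr2b read 7.86, 4.59 and 7.54 RPKM in controls and 12, 20.2 and 13.7 RPKM in knockouts, without overlap, and passed as higher (limma adjusted p 0.0295).

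Lectin and CD300 receptors held both directions. Of the 3 with a control mean of at least 0.5 RPKM, Clec10a and Clec4a3 rose and Mrc1 fell, and the other 6 entered the test only through their knockout level. Clec4n encodes dectin-2, a receptor for fungal sugars, and read 0.119, 0.107 and 0.0825 RPKM in controls and 1.3, 4.18 and 3.13 RPKM in knockouts. It was among the lowest of the genes in controls, and each knockout library was over 10-fold above every control (27.9-fold, log2 change 2.37 ± 0.34 SE, limma adjusted p 0.00717). Clec10a, a lectin for galactose-type sugars on macrophages and dendritic cells, read 1.05, 0.127 and 0.719 RPKM in controls and 2.83, 7.13 and 7.17 RPKM in knockouts. Control replicate 2 was the lowest control, unlike for most of the genes, and the groups stood apart (9.04-fold, log2 change 2.45 ± 0.43 SE, limma adjusted p 0.0133), though the call was lost without knockout replicate 2. Rises with limma adjusted p from 0.0165 to 0.0454 were seen for Clec12a, an inhibitory receptor (6.25-fold), for Clec4a1 and Clec4a3, of the dendritic cell immunoreceptor family (4.3-fold and 5-fold), and for the receptors Cd300lb and Cd300ld (6.26-fold and 4.1-fold). The calls of these 5 genes were lost without knockout replicate 2, and all but that of Clec12a also without control replicate 1. Cd209a, a mouse relative of the lectin DC-SIGN, had the largest p of those that rose in this group (9.24-fold, log2 change 1.49 ± 0.40 SE, limma adjusted p 0.0493), and its call was lost under 11 alternatives, among them leaving out any library but knockout replicate 1. Clec4a1, Clec4a3 and Clec4n lie near each other on chromosome 6, between 122921848 and 123247021, and reads of such related copies are uncertain.

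Mrc1 fell. It encodes the mannose receptor CD206, a marker of resident and alternatively activated macrophages that some endothelial cells, such as those of liver sinusoids, also carry. It read 32.4, 55.5 and 47.8 RPKM in controls and 17.7, 18 and 29.9 RPKM in knockouts. Knockout replicate 3 came close to the lowest control, replicate 1, and the groups did not overlap (0.484-fold, log2 change -1.04 ± 0.26 SE, limma adjusted p 0.0423). The call was lost under 8 of 15 alternatives, which included leaving out control replicate 2 or 3 or knockout replicate 1 or 2, and its log2 change ran from -1.28 to -0.88 over all 15. In controls Mrc1 had the highest level of the 46 genes, 45.2 ± 11.8 RPKM, and in knockouts it had the fifth, after Lgals3, Lyz2, Cd14 and Ctss. The summed level of 6 glomerular endothelial markers was 1681 to 2475 RPKM in controls and 908 to 1584 RPKM in knockouts; its part in the level of Mrc1 was not tested.

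**Figure D2:**
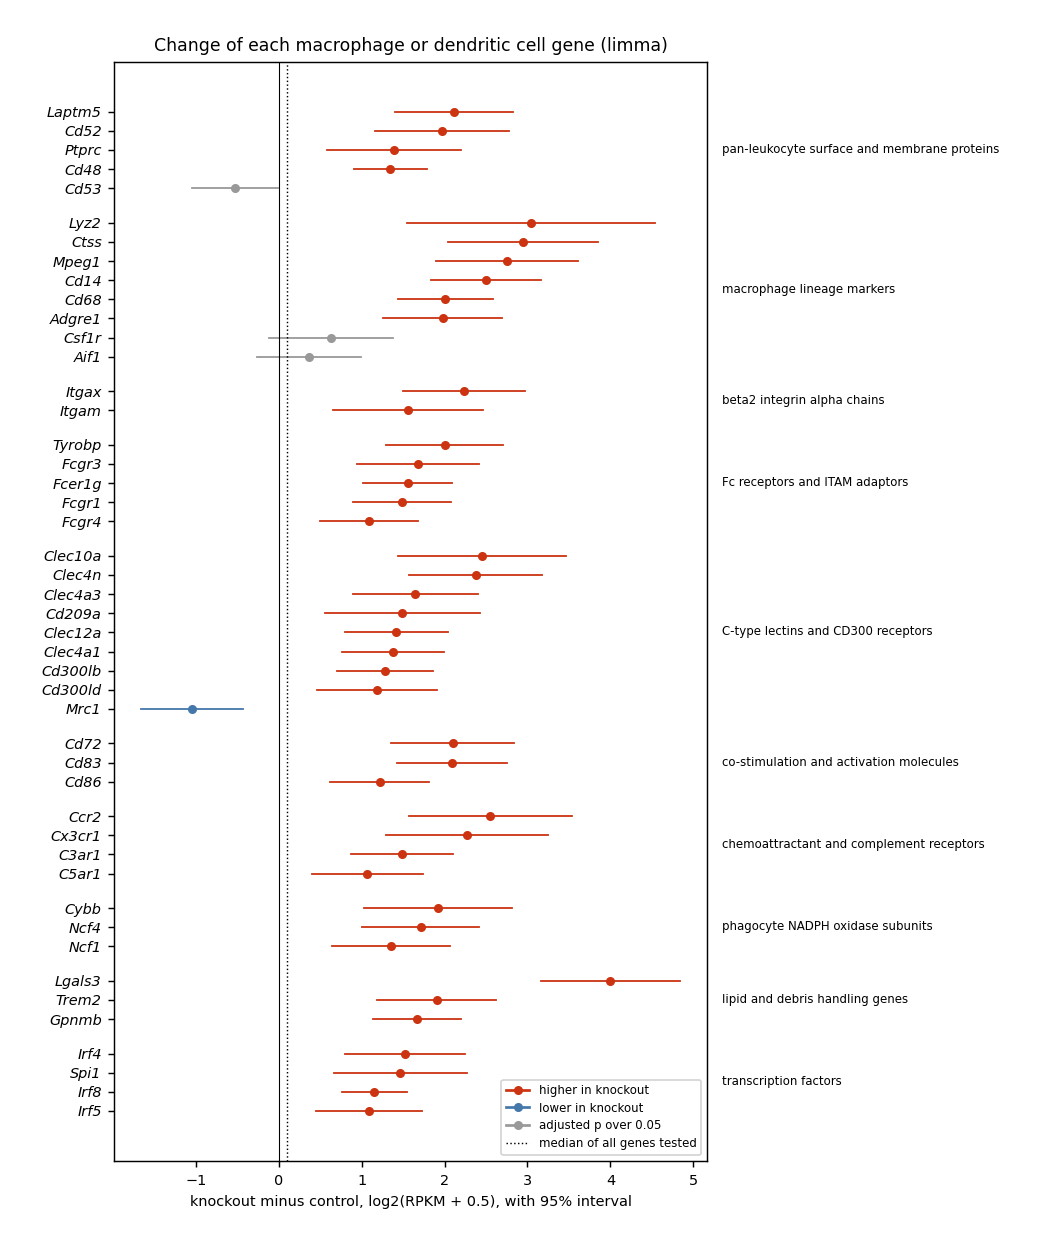
Log2 change of each gene, knockout minus control on log2(RPKM + 0.5), from limma, with 95% intervals as bars and the genes grouped by role. The dotted line marks the median of all genes tested, 0.10. Lgals3 lies farthest to the right at 4.00, and Mrc1 is the gene that passed on the left, at -1.04.

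Of 3 co-stimulation and activation molecules, Cd83 and Cd72 rose, and Cd86, under 0.5 RPKM in controls, entered the test only through its knockout level. Cd83, a sign of dendritic cell maturation, read 0.609, 0.773 and 0.528 RPKM in controls and 3.02, 6.89 and 3.76 RPKM in knockouts. The lowest knockout library was well above the highest control (7.16-fold, log2 change 2.09 ± 0.28 SE, limma adjusted p 0.00607). Cd72, a receptor with an inhibitory tail on B cells and some macrophages, read 0.933, 0.418 and 0.513 RPKM in controls and 2.51, 5.96 and 4.85 RPKM in knockouts. Control replicate 1 was the highest control and the groups were separate (7.15-fold, log2 change 2.10 ± 0.32 SE, limma adjusted p 0.00827). Its exons overlap those of Tesk1 on the other strand. Cd86, a ligand of CD28 on T cells, rose from 0.138 ± 0.0761 to 1.02 ± 0.401 RPKM (limma adjusted p 0.0237), a call lost under 5 alternatives, among them leaving out control replicate 1 or 2 or knockout replicate 2.

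Receptors that draw phagocytes into tissue were low in controls. All 4 had a control mean under 0.5 RPKM and entered the test only through their knockout level, so their number is no result, and folds ran from 3.89 for C5ar1 to 17.1 for C3ar1. Ccr2, which brings monocytes out of the marrow and into inflamed tissue, read 0.336, 0.764 and 0.279 RPKM in controls and 2.3, 8.03 and 6.46 RPKM in knockouts. Knockout replicates 2 and 3 were about 3-fold above knockout replicate 1, which was itself above all controls (12.2-fold, log2 change 2.55 ± 0.42 SE, limma adjusted p 0.0108). C3ar1, the receptor for the complement fragment C3a, read 0.143, 0.031 and 0.0239 RPKM in controls and 0.637, 1.6 and 1.15 RPKM in knockouts. The groups did not overlap (17.1-fold, log2 change 1.49 ± 0.26 SE, limma adjusted p 0.0135). Cx3cr1, the receptor for fractalkine on patrolling monocytes and kidney macrophages, rose from 0.35 ± 0.115 to 4.07 ± 2.35 RPKM (limma adjusted p 0.0151), with exons that overlap the antisense model Gm33858. C5ar1, the receptor for the complement fragment C5a, rose from 0.349 ± 0.0797 to 1.36 ± 0.651 RPKM, close to the threshold (limma adjusted p 0.0497), and lost the call under 10 alternatives.

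Ligands of these receptors were measured in the same libraries. Of 7 tested, 5 rose and 2 did not pass. Ccl2 and Ccl7, among those that rose, had control means under 0.5 RPKM and entered the test only through their knockout level. Ccl2, the main ligand of Ccr2, read 0.183, 0.26 and 0.0319 RPKM in controls and 30.7, 102 and 64.6 RPKM in knockouts, a difference far beyond the spread of either group (log2 change 6.51 ± 0.40 SE, limma adjusted p 0.00097). Ccl7, a further ligand of Ccr2, had 1 read in the controls and 2.79, 10.1 and 6.81 RPKM in knockouts (limma adjusted p 0.0031). C3, the source of C3a, read 2.17, 2.39 and 1.08 RPKM in controls and 169, 261 and 96.2 RPKM in knockouts (log2 change 6.14 ± 0.38 SE, limma adjusted p 0.00097). The changes of the growth and adhesion ligands were smaller: Cx3cl1, fractalkine, rose from 32.2 ± 2.04 to 57.8 ± 2.52 RPKM (limma adjusted p 0.0058), and Il34 from 26.5 ± 2.77 to 49.6 ± 12.8 RPKM (limma adjusted p 0.0274). Csf1, the other ligand of Csf1r, read 63.4 ± 10.3 RPKM in controls and 54.2 ± 10.2 RPKM in knockouts and did not pass (limma adjusted p 0.439). These ligands are also made by kidney epithelium and endothelium, and bulk RNA does not show their source.

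Cybb, Ncf1 and Ncf4 encode some of the subunits of the phagocyte NADPH oxidase, which makes superoxide to kill engulfed microbes, and all 3 of these genes rose. Ncf4, a cytosolic subunit, read 0.948, 1.3 and 0.671 RPKM in controls and 2.55, 5.7 and 5.15 RPKM in knockouts. All knockout libraries were above all controls (4.6-fold, log2 change 1.71 ± 0.30 SE, limma adjusted p 0.0135). Cybb, the catalytic membrane subunit on the X chromosome, read 0.394, 1.21 and 0.368 RPKM in controls and 2.27, 6.03 and 3.48 RPKM in knockouts. Control replicate 2 was about 3-fold above the other controls and below the knockouts (5.99-fold, log2 change 1.92 ± 0.38 SE, limma adjusted p 0.0193). Ncf1, the organising subunit, rose from 0.534 ± 0.142 to 2.27 ± 1.01 RPKM (limma adjusted p 0.0291), with exons that overlap those of Gtf2ird2. The calls of all 3 were lost without knockout replicate 2, that of Cybb also without control replicate 1 or 3, and that of Ncf1 under 8 alternatives. Of 4 related genes described here, Rac2 and Nox4 rose, and Cyba and Rac1 did not pass. Rac2, the small GTPase of blood cells, rose from 0.968 ± 0.263 to 3.02 ± 1.38 RPKM (limma adjusted p 0.0444), a call lost under 10 of 14 alternatives. Nox4, an oxidase of kidney tubule cells, rose from 16.8 ± 5.13 to 48.6 ± 19.8 RPKM (limma adjusted p 0.0409) and lost the call under 8 of 15 alternatives. Cyba, the membrane partner shared by several oxidases, read 125, 76 and 194 RPKM in controls and 362, 313 and 174 RPKM in knockouts and did not pass (limma adjusted p 0.0987). Rac1, the widely made relative of Rac2, stood at 0.922-fold (limma adjusted p 0.623).

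Genes of lipid and debris handling include Lgals3, which had the largest change of the 46 genes on log2(RPKM + 0.5), and Gpnmb and Trem2, both under 0.5 RPKM in controls. This rank depends on the scale: by fold, genes with low control levels stood above Lgals3, Trem2 among them. Lgals3 encodes galectin-3, a lectin of macrophages that injured kidney epithelium also makes, and read 5.63, 4.09 and 11.1 RPKM in controls and 84.4, 156 and 100.1 RPKM in knockouts. Every knockout library was far above every control (16.4-fold, log2 change 4.00 ± 0.36 SE, limma adjusted p 0.00206), and Lgals3 went from the sixth highest level of the 46 genes in controls to the highest in knockouts. Gpnmb, a glycoprotein of lipid-laden macrophages, had 2 reads in the controls together and 626 reads in the knockouts together. Its knockout levels were 0.716, 1.35 and 1.33 RPKM, and the ratio per counted read was 287, with a 95% interval from counting error alone of 79.0 to 2371 (limma adjusted p 0.00597). Trem2, a receptor for lipids and cell debris that signals through Tyrobp, read 0.0644, 0.083 and 0.0224 RPKM in controls and 0.848, 2.59 and 1.66 RPKM in knockouts. The controls were at a few reads and the groups lay far apart (30.0-fold, log2 change 1.90 ± 0.31 SE, limma adjusted p 0.00988).

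Of the transcription factors of the lineage, all 3 with a control mean of at least 0.5 RPKM rose, Irf8, Spi1 and Irf5. Irf8, needed for monocytes and some dendritic cells, read 2.75, 3.22 and 3.91 RPKM in controls and 7.08, 7.82 and 8.78 RPKM in knockouts. Its libraries agreed closely within each group and the groups did not overlap (2.4-fold, log2 change 1.15 ± 0.17 SE, limma adjusted p 0.00723). Irf4, which takes part in dendritic cell and alternative macrophage programmes and is also made by lymphocytes, read 0.0946, 0.0528 and 0.0219 RPKM in controls and 0.613, 2.03 and 0.934 RPKM in knockouts. It was near 0 in the controls and highest in knockout replicate 2 (21.1-fold, log2 change 1.52 ± 0.31 SE, limma adjusted p 0.0215), and the call was lost when any 1 of the controls was left out. Spi1, the gene of PU.1, read 0.886, 1.57 and 1.27 RPKM in controls and 2.32, 6.59 and 4.89 RPKM in knockouts. Knockout replicate 1 was closest to the controls (3.7-fold, log2 change 1.47 ± 0.34 SE, limma adjusted p 0.033), and the rise was lost under 7 alternatives, among them leaving out any 1 of the controls or knockout replicate 2 or 3. Irf5, of inflammatory macrophages, rose from 2.69 ± 1.03 to 6.21 ± 1.67 RPKM (limma adjusted p 0.0404), the smallest fold among the 42 genes that rose, and lost the call under 8 alternatives. Exons of Irf5 overlap those of Tnpo3 on the other strand.

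Knockout libraries were not alike in the level of these genes. Knockout replicate 1 was the lowest of the 3 for 45 of the 46 genes, and knockout replicate 2 the highest for 39, with replicate 3 the highest for the other 7. How often the libraries ranked so over all genes was not counted, so this order may not be particular to the 46 genes. Over the genes that rose, the ratio of knockout replicate 2 to replicate 1 had a median of 2.44 and ran from 1.10 to 5.08, and that of replicate 3 to replicate 1 had a median of 1.81. Among controls, replicate 2 was the highest for 29 genes, and over the genes that rose its ratio to the mean of the other controls had a median of 1.35. Markers of other cells moved between the same libraries. Nphs1, which encodes nephrin of the podocyte filter, read 98.9, 35.2 and 118 RPKM in the knockouts and was lowest in replicate 2. Cd44, a marker of activated parietal epithelium that leukocytes also carry, read 12, 32.6 and 16.9 RPKM and was highest in replicate 2. The part of these differences in the spread of the macrophage genes was not tested.

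Next it was asked which genes changed by more or by less than Ptprc, taken as a common leukocyte gene, by fitting the difference to Ptprc within each library. Of the 45 other genes, 5 changed by more, against 0.740% of all genes tested, 2 changed by less, against 65.9% of all genes tested, and 38 did not pass. Of these 45 genes, 19, Ccr2 among them, had control means under 0.5 RPKM and entered the fit only through their knockout level. All 45 were chosen with earlier results of these data known, so these counts are a description and not a test. Lgals3 stood at 4.38, 1.46 and 10.5 times the RPKM of Ptprc in controls and at 25.8, 22.8 and 18.2 times in knockouts. These ratios did not overlap, and the change exceeded that of Ptprc by 2.61 ± 0.53 SE on the log2 scale (limma adjusted p 5.6e-05). Lyz2 (1.65 ± 0.53 SE, limma adjusted p 0.0112), Ctss (1.56 ± 0.52 SE, limma adjusted p 0.0136), Mpeg1 (1.36 ± 0.53 SE, limma adjusted p 0.0237) and Ccr2 (1.16 ± 0.53 SE, limma adjusted p 0.046) also changed by more. Mrc1 stood at 25.2, 19.9 and 45.1 times the RPKM of Ptprc in controls and at 5.39, 2.64 and 5.45 times in knockouts. Its change minus that of Ptprc was -2.43 ± 0.53 SE (limma adjusted p 0.000213), with every knockout ratio under every control ratio. Cd53 stood at 6.1, 4.9 and 11.8 times the RPKM of Ptprc in controls and at 1.96, 1.16 and 1.51 times in knockouts, again without overlap, with a difference of -1.92 ± 0.52 SE (limma adjusted p 0.00359). Lgals3 and Mrc1 kept these calls under all 15 alternatives, Cd53 under 12, Lyz2, Ctss and Mpeg1 under 10 each, and Ccr2 under 7. Cd53, Lyz2, Ctss, Mpeg1 and Ccr2 each lost theirs without control replicate 3, knockout replicate 2 or knockout replicate 3, where 2 of the 45 genes passed. The choice of reference gene turned the balance: with Laptm5 in place of Ptprc, 1 gene changed by more, Lgals3, and 8 by less, Cd53, Mrc1, Csf1r, Aif1, Fcgr4, C5ar1, Irf8 and Irf5, while Lyz2, Ctss, Mpeg1 and Ccr2 did not pass (differences of 0.93, 0.83, 0.63 and 0.44). The error of Ptprc itself enters every such comparison, and low genes are understated against it: with a pseudocount of 0.1 RPKM, 14 genes passed.

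**Figure D3:**
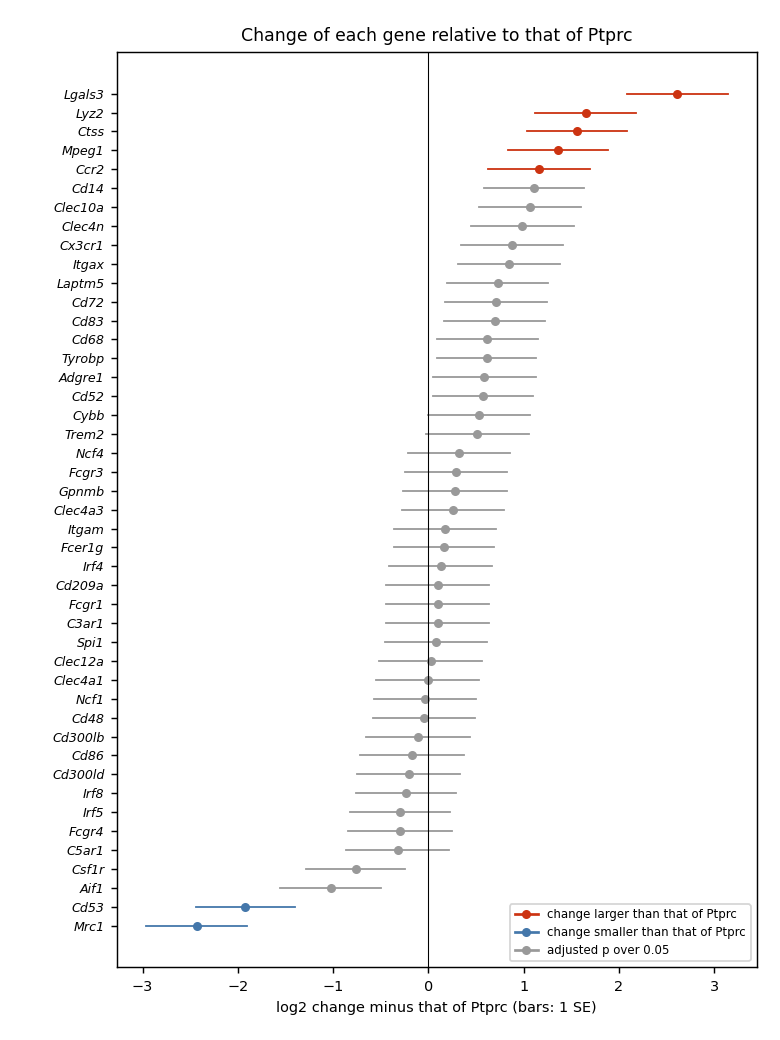
Log2 change of each gene minus that of Ptprc, on log2(RPKM + 0.5), with bars of 1 SE. Red genes changed by more than Ptprc, led by Lgals3 at 2.61, blue genes by less, Cd53 at -1.92 and Mrc1 at -2.43, and the 38 grey genes did not pass.

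Further macrophage genes rose in part. Of 9 resident and complement-producing macrophage genes tested, 5 rose and 4 did not pass. C1qb and C1qc, chains of the complement starter C1q that tissue macrophages make, had the largest changes of these: C1qb read 1.67, 0.161 and 1.72 RPKM in controls and 8.3, 29.1 and 24.8 RPKM in knockouts, and C1qc 1.73, 0.379 and 1.51 and 8.87, 34 and 20.9 RPKM. Control replicate 2 was the lowest control for both, and the groups lay far apart (limma adjusted p 0.0102 and 0.00733). Ms4a7, a macrophage membrane protein, rose from 0.0278 ± 0.0257 to 1.14 ± 0.439 RPKM (limma adjusted p 0.00901). Its control mean was under 0.5 RPKM, so it entered the test only through its knockout level. Of 11 lipid-associated macrophage genes, 6 rose and 5 did not pass. Spp1, osteopontin, which tubule epithelium also secretes, read 83.7, 40.9 and 117 RPKM in controls and 2089, 3261 and 1029.6 RPKM in knockouts (log2 change 4.69 ± 0.51 SE, limma adjusted p 0.0031). Apoe, a lipid carrier, rose 1.81-fold and Lipa, the lysosomal acid lipase, 1.52-fold (limma adjusted p 0.0185 and 0.0272). Apoe lost the call under 4 alternatives and Lipa under 7.

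Activation, monocyte and dendritic cell subset genes gave mixed results. Of 6 activation genes tested, Tnf rose, Arg1 fell and 4 did not pass. Tnf, the inflammatory cytokine, read 0.164, 0.461 and 0.202 RPKM in controls and 1.1, 1.44 and 1.61 RPKM in knockouts (5.02-fold, log2 change 1.29 ± 0.22 SE, limma adjusted p 0.0122), and its call was lost without knockout replicate 2. With a control mean under 0.5 RPKM, Tnf entered the test only through its knockout level. Arg1, arginase of alternatively activated macrophages, read 0.9, 1.42 and 1.72 RPKM in controls and 0.314, 0.332 and 0.139 RPKM in knockouts, all knockouts being lower (log2 change -1.26 ± 0.24 SE, limma adjusted p 0.0164); this call was lost without control replicate 2 or 3. Cd40, a receptor for T cell help, read 23.8 ± 6.5 RPKM in controls and 16.2 ± 1.91 RPKM in knockouts and did not pass (limma adjusted p 0.137). Of 7 monocyte genes, 2 rose and 5 did not pass. Fn1, fibronectin, which many other cells make, rose from 1.45 ± 0.519 to 42.3 ± 20.5 RPKM (limma adjusted p 0.00206), and Plac8 from 20.3 ± 6.37 to 49.9 ± 13 RPKM (limma adjusted p 0.0242). Plac8 did not pass without control replicate 1 or 3 or without knockout replicate 1 or 2. Ly6c2, the surface marker of inflammatory monocytes, read 0.369, 0.642 and 0.321 RPKM in controls and 0.635, 1.04 and 1.35 RPKM in knockouts, with overlapping groups (limma adjusted p 0.12). Of 8 dendritic cell subset genes, 3 rose and 5 did not pass. Ccl22, a chemokine of dendritic cells, rose from 0.1 ± 0.0818 to 1.08 ± 0.469 RPKM (limma adjusted p 0.0175), Batf3, a factor of cross-presenting dendritic cells, from 0.727 ± 0.266 to 2.2 ± 0.702 RPKM (limma adjusted p 0.0283), and Fscn1, an actin bundler of migrating dendritic cells, from 10.4 ± 1.43 to 15.2 ± 1.31 RPKM (limma adjusted p 0.0486). The call of Fscn1 was lost under 12 of 15 alternatives, that of Batf3 under 6 and that of Ccl22 under 5 of 14. With a control mean under 0.5 RPKM, Ccl22 entered the test only through its knockout level. The 5 that did not pass all had log2 changes under 0, and the median of the 8 tested genes was -0.12. Flt3, Xcr1 and Siglech, too low to be tested, had 18, 5 and 34 reads in controls. In knockouts they had 140, 79 and 142 reads, and their RPKM values did not overlap between groups. Ccr7 and Cd207, also too low to be tested, had overlapping groups. Dpp4, a surface peptidase that kidney epithelium also carries, read 132, 120.4 and 66.6 RPKM in controls and 46, 31.5 and 62.9 RPKM in knockouts, without overlap (log2 change -1.17 ± 0.32 SE, limma adjusted p 0.0549), and passed as lower with median-of-ratios scaling, without control replicate 3 and without knockout replicate 3. The log2 changes of Tcf4, Clec9a, Cd24a and Zbtb46 were -0.20, -0.16, -0.13 and -0.11 (limma adjusted p 0.419 to 0.768). Their control means were 22.5, 10.1, 233 and 11.9 RPKM, where that of Ptprc was 1.71 RPKM. Bulk RNA does not show which cells made them.

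**Figure D4:**
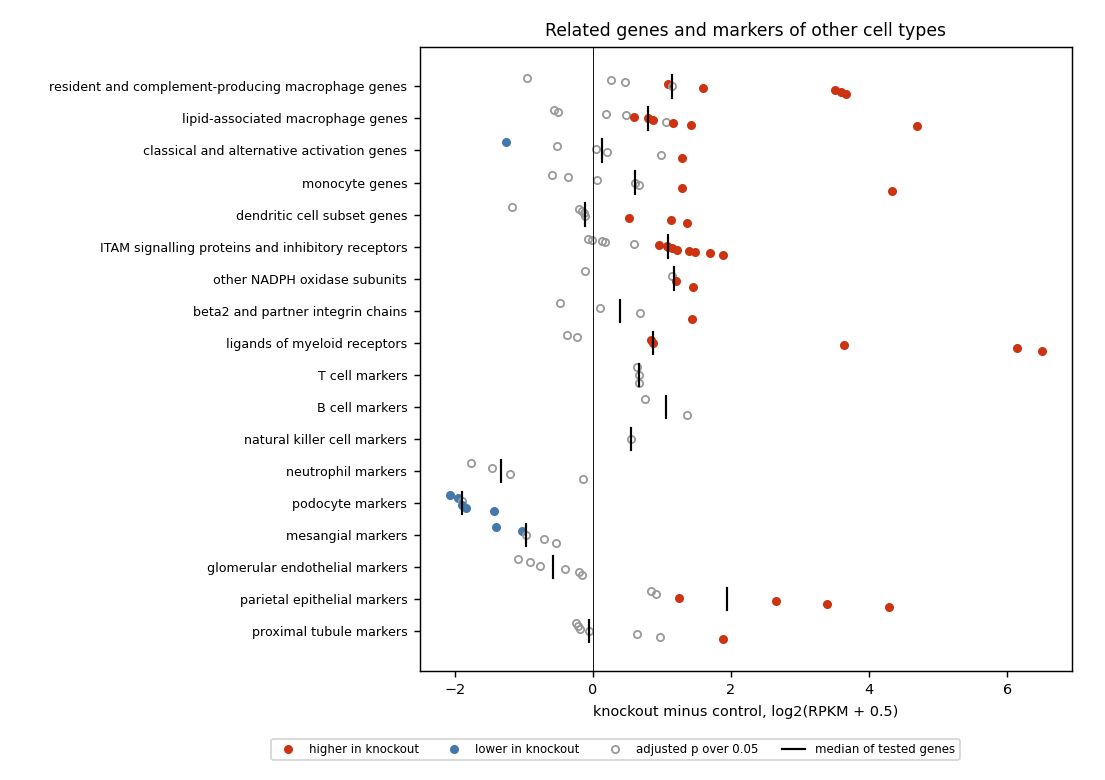
Log2 change, knockout minus control on log2(RPKM + 0.5), of the tested genes of 9 related lists and of markers of other cell types, 1 point a gene, with the median of each list as a black bar. Filled red points rose, filled blue points fell and open grey points did not pass. Ccl2 and C3 lie farthest right, at 6.51 and 6.14, podocyte markers lie on the left, and T cell, B cell and natural killer cell markers hold open points.

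Summed levels of T cell, B cell, natural killer cell and mast cell markers were under 4 RPKM in each control library, and those of neutrophil markers were near the sum of the 8 macrophage markers there, 30.7 to 54.4 RPKM. Among 8 T cell markers with a row, 3 reached the level needed for testing, and 0 of these passed by limma, though all 3 had an unadjusted p under 0.05, and limma-voom on recovered reads called 0. Cd3g and Cd4, among the 3, had control means under 0.5 RPKM and entered the test only through their knockout level. The count at an unadjusted p is therefore a description. Their list summed to 2.84 to 3.29 RPKM in controls and 3.76 to 7.83 RPKM in knockouts, without overlap, with Cd3g, a chain of the T cell receptor complex, at 0.337, 0.446 and 0.402 RPKM in controls and 0.626, 1.06 and 1.11 RPKM in knockouts (limma adjusted p 0.0786). Lck, a kinase of T cells, and Cd4, a co-receptor, had log2 changes of 0.64 and 0.67 (limma adjusted p 0.11 and 0.127), and Cd4 passed as higher without knockout replicate 1. Of 7 B cell markers 2 were tested and 0 passed by limma, 2 at an unadjusted p under 0.05 and 0 by limma-voom, and the list summed to 3.05 to 3.89 RPKM in controls and 4.24 to 9.17 RPKM in knockouts. The tested B cell markers, Cd79b and Jchain, had log2 changes of 0.76 and 1.37 (limma adjusted p 0.0925 and 0.101). Cd79b, with a control mean of 0.491 RPKM, also entered the test only through its knockout level. Nkg7, the 1 of 7 natural killer cell markers that was tested, did not pass (limma adjusted p 0.239). Mast cell markers summed to 0.283 to 0.502 RPKM in controls and 0.398 to 0.491 RPKM in knockouts, with Fcer1a and Tpsb2 at 0 throughout. Among 8 neutrophil markers with a row, 4 were tested and 0 passed by limma, 2 at an unadjusted p under 0.05 and 0 by limma-voom. Neutrophil markers summed to 26.4 to 50.1 RPKM in controls and 3.65 to 23.4 RPKM in knockouts, with S100a8, a calcium-binding protein of neutrophils, at 8.72, 16.7 and 13.7 RPKM in controls and 0.789, 7.7 and 4.99 RPKM in knockouts (limma adjusted p 0.11). Its partner S100a9 read 14.9, 26.7 and 15.1 RPKM in controls and 1.81, 11.6 and 10.7 RPKM in knockouts, also without overlap (limma adjusted p 0.156), and Retnlg had a log2 change of -1.21 (limma adjusted p 0.184). Itgam and Lyz2, which neutrophils also carry, rose while the summed level of neutrophil markers was lower. The part of neutrophils in the levels of these 2 genes was not tested.

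Markers of glomerular and tubule cells differed as well. Of 6 podocyte markers 5 fell, and their sum was 2694 to 5138 RPKM in controls and 719 to 1807 RPKM in knockouts, with Synpo, an actin-binding protein of foot processes, at 0.266-fold (limma adjusted p 0.00698) and Wt1, a transcription factor of podocytes, at 0.283-fold (limma adjusted p 0.00998). Of 5 mesangial markers tested 2 fell, Sfrp2 and Ptn (limma adjusted p 0.0166 and 0.0281), and both lost the call without knockout replicate 2, while Gata3 did not pass (log2 change -0.97, limma adjusted p 0.0641). By limma 0 of 6 endothelial markers passed, 3 at an unadjusted p under 0.05 and 1 by limma-voom, all as lower. Ehd3, Emcn and Kdr had the smallest p of these, with log2 changes of -1.09, -0.91 and -0.76 (limma adjusted p 0.0641, 0.0711 and 0.133). Of 6 parietal epithelial markers 4 rose, and their sum was 53.4 to 79.2 RPKM in controls and 166 to 326 RPKM in knockouts, with Cldn1, a tight junction protein, at 6.8-fold and Krt18, a keratin, at 11.8-fold. Of 7 proximal tubule markers, Slc5a12, a lactate transporter, rose (3.99-fold, limma adjusted p 0.0148, lost without knockout replicate 2), Slc5a2 and Cubn came next by p and did not pass (limma adjusted p 0.113 and 0.318), and the list summed to 729 to 1456 RPKM in controls and 777 to 1550 RPKM in knockouts. The part of these markers' changes in the levels of the macrophage genes was not tested.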

How the data were processed

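Glomerular RNA of 6 mouse libraries was analysed from the authors' deposited table of RPKM values, in which 24035 rows carry a gene symbol. The submitters' processing notes name mm10 as the genome and, as tools, edgeR, featureCounts, STAR and FastQC. Their versions, the annotation and the strand setting are not given in the sources consulted, so reads of overlapping genes on either strand, and of close copies, cannot be told apart. Another 27 rows, with a calendar date for a symbol, held 0.233% to 0.269% of reads and were left out. Every value was a whole multiple of the worth of 1 read within 0.001 read, which gave the counted reads per library, 38936993 to 58272424; intervals from reads cover counting error only.

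Groups came from the genotype labels, with all 6 libraries in 1 fit. Genes averaging 0.5 RPKM or more were transformed to log2(RPKM + 0.5) and fitted with limma 3.58.1 in R 4.3.3, with a mean-variance trend, two-sided, with Benjamini-Hochberg adjustment and a threshold of 0.05; this was tested on simulated data. The same fit on values minus those of Ptprc in each library compared changes with that of Ptprc. The 46 genes and the related lists and marker lists were chosen with earlier results of these data known. Values in every library are given for the 2 genes of smallest p in each role group, for those that fell or did not pass, and for Ptprc, Csf1r, Itgam, Itgax and Spi1; Ctss, Fcgr4, Lyz2, Mpeg1 and Adgre1 were added after their values were seen. In each other list the 3 genes of smallest p and those called in the opposite direction are named. Fcgr2b, Il34, Cx3cl1, Csf1, Cyba, Rac1, Dpp4, Tcf4, Clec9a, Cd24a, Zbtb46, Fcer1a and Tpsb2 were added after their values were seen. So were Lcp2, Vav1, Pirb, Flt3, Xcr1, Siglech, Ccr7 and Cd207. Counts over these lists stand beside 9.98% of all genes tested that rose and 3.48% that fell. Positions are from GENCODE M21 and promoters from RefSeq, both on GRCm38. Alternatives were pseudocounts of 0.1 and 1 RPKM, no filter and a filter at 2 RPKM, quantile normalization, median-of-ratios scaling, no trend, a replicate block, leaving out each library and, chosen after seeing the data, limma-voom on the recovered reads and Laptm5 in place of Ptprc. Ly6g and Trac were not analysed here, and 1 gene of the related lists is not reported here, so counts over its list leave it out.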

Additional observations from a re-analysis of the deposited data

How the results depend on the processing

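The number of the 46 genes that rose, 42, was 30 to 42 with either pseudocount, no filter, either scaling, no trend, the replicate block or limma-voom, and 23 of 27 tested with the filter at 2 RPKM, which tests fewer genes. It was 22 to 40 with 1 library left out. The number that fell, 1, was 0 without the filter, with the filter at 2 RPKM, without the trend and with the replicate block, and 0 to 2 with 1 library left out. Over all genes, 1389 rose and 484 fell; 841 rose with the filter at 2 RPKM, and with quantile normalization 849 rose and 798 fell. With 1 library left out, 526 to 1536 rose and 127 to 619 fell. The median log2 change of the 46 genes, 1.61, was 2.21 with a pseudocount of 0.1 RPKM, 2.00 with the filter at 2 RPKM, 2.54 with limma-voom, and 1.42 to 1.88 with 1 library left out. The number whose change differed from that of Ptprc, 7, was 14 with a pseudocount of 0.1 RPKM and 2 to 9 with 1 library left out. Shares of all genes under these alternatives are not at hand, so the counts against Ptprc are a description. Klf4, at 0.02, was -0.0098 with quantile normalization, -0.093 with median-of-ratios scaling and -0.35 to 0.24 with 1 library left out, all far from the threshold. Clec9a (-0.16) ran from -0.45 to 0.043 and Zbtb46 (-0.11) from -0.27 to 0.066 with 1 library left out, neither past the threshold. The cause of these shifts was not tested beyond the smaller number of genes or libraries.

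The labels give replicate numbers to both groups and do not say whether these pair the libraries. Deviations from the group mean correlated at 0.17, -0.22 and -0.46 between libraries of the same number. With means of 3 libraries, such correlations cannot settle whether the libraries are paired. With the replicate number as a block, 34 of the 46 genes rose and 0 fell, 632 of all genes rose and 179 fell, and 14 genes differed in change from Ptprc. Depth limits the genes with control levels of a few reads, such as Gpnmb and Trem2, whose folds are uncertain.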

Other observations

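The balance between the integrin genes Itgax and Itgam was looked at after their values were seen. The ratio of their RPKM values was 0.704, 0.389 and 0.895 in the controls, in order of replicate, and 1.47, 1.17 and 1.35 in the knockouts, so that Itgax was the lower of the pair in every control and the higher in every knockout. With 3 against 3 libraries the exact two-sided permutation p of 0.1 was the smallest possible, and 0.2 after adjustment over the 2 ratios tried. The ratio of Cx3cr1 to Ccr2, also chosen after the values were seen, was 1.11, 0.591 and 0.809 in controls and 0.664, 0.768 and 0.698 in knockouts, with overlapping groups (exact permutation p 0.6, adjusted p 0.6). Itgax, Cx3cr1 and Ccr2 had control means under 0.5 RPKM and reached the level for testing only through their knockout level, so both ratios are a description. Exons of Itgam overlap those of Gm49368 and those of Cx3cr1 overlap those of Gm33858, whose reads may enter these ratios.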
